A study of Mus musculus with 4 samples.

Results

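The genes of fatty acid uptake, storage and oxidation were described in satellite cells (muscle stem cells) that overexpressed the active part of Notch3. The set holds 42 genes chosen by symbol, of 21264 genes in the deposited table, and each of the 42 matched 1 row. All 4 libraries belong to a single group, labelled N3OE. Their donor cells were myogenic progenitors made from pluripotent stem cells of the mouse iPax3 line, and they overexpressed NICD3, the part of the Notch3 receptor that acts in the nucleus after cleavage. After transplantation the satellite cells that descended from them were re-isolated, and their RNA was amplified as low-input cDNA. No label gives the host strain, its age, the time in the host or the promoter that drives NICD3. Nor does a label say whether each library is a separate animal. Spreads therefore measure how far the libraries differ, which could be technical only. The p-values test the mean difference between paired genes within a library, over these libraries only. Cells of the line without NICD3 are not analysed here. The data therefore hold levels and their spread, and no effect of NICD3 can be read from them.

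Fatty acids enter a cell with the help of carriers such as Cd36 and the Slc27a proteins, are bound by fatty acid binding proteins and are activated to acyl-CoA by the Acsl enzymes. Activated chains are stored as triglyceride in lipid droplets or passed into mitochondria by the carnitine shuttle, where Cpt1 is the controlled step, and are then shortened in the beta-oxidation spiral, which hands its electrons to the electron transfer flavoprotein. Synthesis runs the other way, through acetyl-CoA carboxylase and Fasn, and malonyl-CoA made by the carboxylases inhibits Cpt1. In skeletal muscle the mature fibre is known for the muscle isoform Cpt1b, and quiescent satellite cells are known for their use of fatty acid oxidation.

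Levels are given as CPM, reads per 1000000 reads counted to genes, and between genes as CPM per kb of exon. Depth was 12544138 to 13302916 reads per library, so 1 read was worth 0.0752 to 0.0797 CPM. The 10 satellite cell markers, Pax7 and Myf5 among them, were all found at 1 CPM or above throughout, with a summed level of 4190 to 5546 CPM. Notch3 was present at 168, 191, 162 and 153 CPM in replicates 1 to 4, and transgene and endogenous reads cannot be told apart. Markers of other cells were also present. Of these, 10 genes of fibro-adipogenic progenitors summed to 6313, 8595, 9128 and 7207 CPM, with Pdgfra at 0, 0.376, 2.30 and 0.399 CPM. Most of that sum was Col3a1, at 3491, 5206, 5633 and 4065 CPM, with Gsn, Dpt and Col1a1 next. Lum, Pi16 and Clec3b averaged 1.38, 2.40 and 0.992 CPM. In bulk RNA, fewer cells of a type and less RNA per cell cannot be told apart.

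Most of the fatty acid genes were expressed. Of the 42 genes, 38 had 1 CPM or more in all 4 libraries, where 53.6% of all genes in the table did. A mean of 10 CPM or more was reached by 32, against 43.3% of all genes. The 4 genes short of 1 CPM in some library were Cpt1b, Plin4, Ucp3 and Ppargc1a. The median level over the 42 genes was 5.28 as log2(CPM + 1), compared with 2.38 over all genes and 4.67 over genes averaging at least 1 CPM. Together the 42 genes took 0.323%, 0.290%, 0.323% and 0.203% of reads in replicates 1 to 4, the smallest share being that of replicate 4.

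Per kb of exon, the highest genes were Etfa at 154 ± 20.3 (SD, n = 4 here and below), Acaa2 at 83.7 ± 43.0, Slc27a1 at 56.7 ± 10.5, Acadvl at 52.0 ± 16.3 and Plin2 at 41.0 ± 17.8 CPM per kb. They belong to electron transfer, oxidation, uptake and storage. At the low end lay the regulators and the isoforms Cpt1b, Plin4 and Ucp3. By role, the median level was 18.2 CPM per kb for the 9 genes of the spiral, 15.6 for electron transfer, 10.4 for droplet coat and lipolysis, 9.81 for the carnitine shuttle, 6.53 for synthesis and desaturation, 5.77 for activation, 4.78 for uptake and binding and 0.801 for the 4 regulators. The median over all genes averaging at least 1 CPM was 5.44 CPM per kb.

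**Figure D1:**
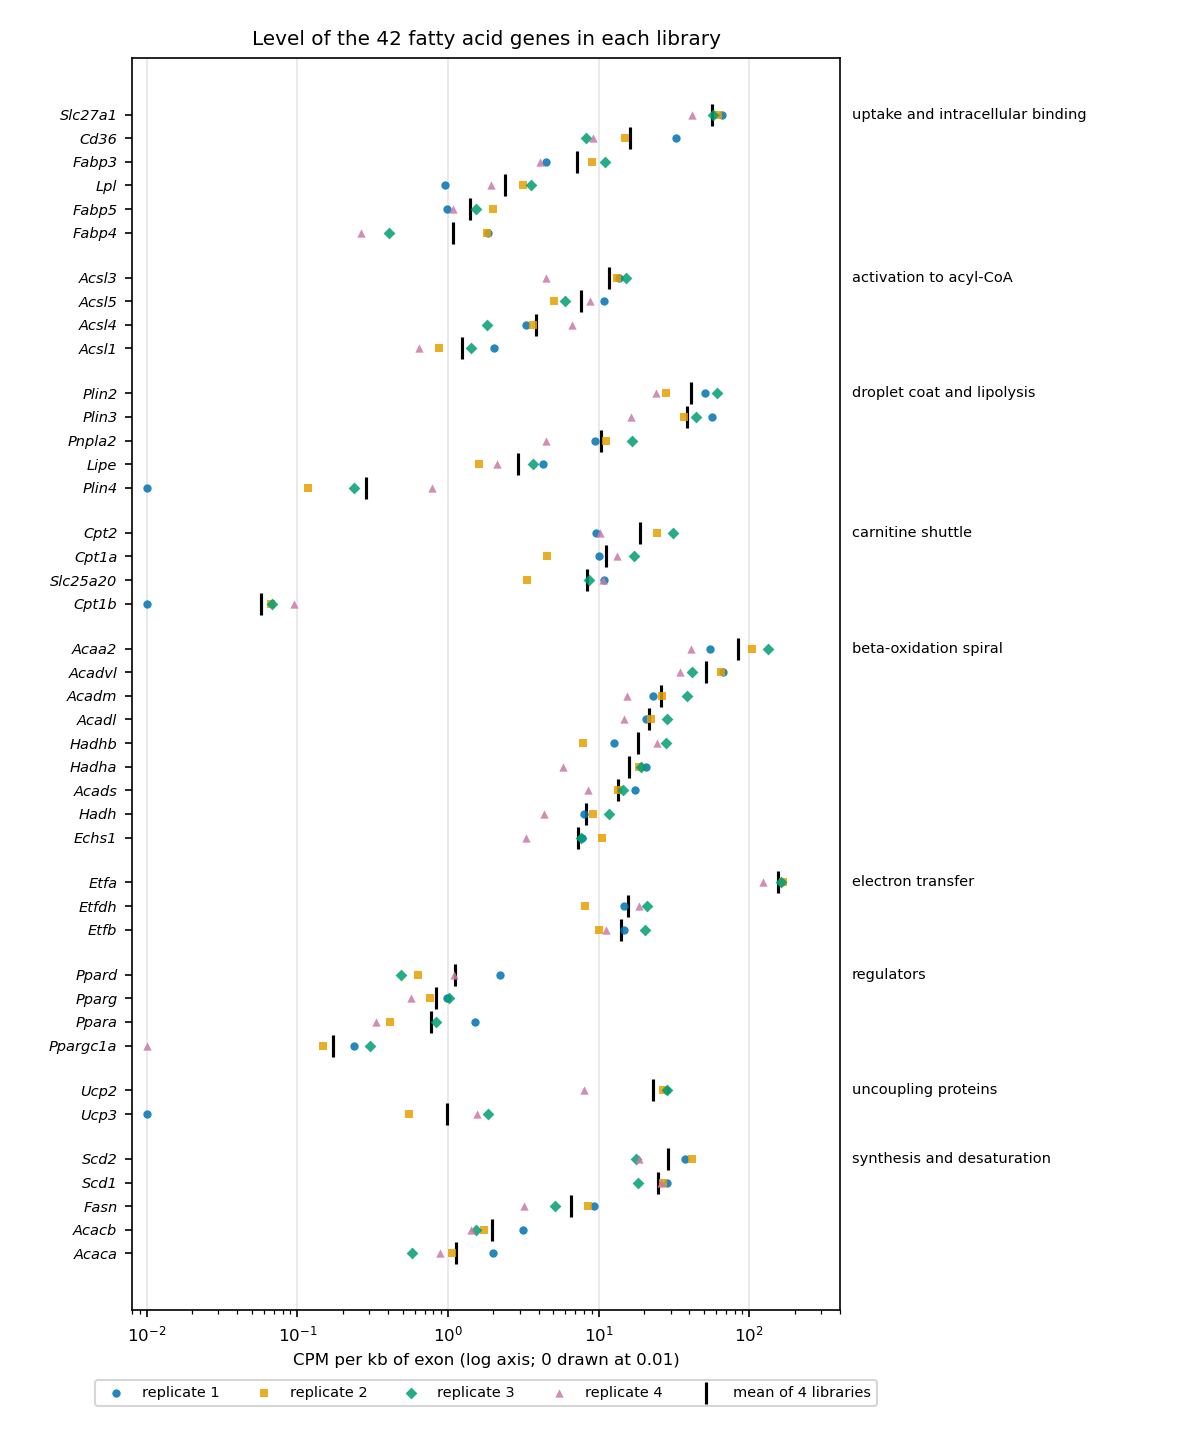
Level of each of the 42 genes as CPM per kb of summed exon on a log axis, with 1 symbol per library and a bar at the mean of the 4 libraries; genes are grouped by role and a level of 0 is drawn at 0.01. Etfa, Acaa2 and Slc27a1 lie furthest right, and Cpt1b, Ppargc1a and Plin4 furthest left.

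Per kb, the highest uptake gene was the transporter Slc27a1 (fatty acid transport protein 1), not Cd36. Slc27a1, at chr8:71568882-71587302 in GRCm38, had 382, 362, 337 and 244 CPM in replicates 1 to 4. Cd36, a scavenger receptor that takes up long-chain fatty acids, had 117, 53.9, 29.7 and 33.1 CPM. The first was thus lowest in replicate 4, though highest there after the correction for GC content described with Hadha, while the second was high in replicate 1. Within each library Cd36 lay below Slc27a1, by a mean of -2.0 ± 0.74 on the log2(CPM per kb + 0.1) scale in 4 of 4 libraries. Of 18 gene pairs compared in this way, 11 had the same sign in every library, and each of these had an exact two-sided sign-flip p of 0.13 and an adjusted p of 0.205. That p is the smallest 4 libraries can give, so no pair could pass 0.05, and the number of libraries of 1 sign is what the comparison yields. The order of a pair can depend on the length used, here all exon bases of the gene. With the longest transcript 10 of the 11 kept 1 sign, and without division by length 8 did.

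The RefSeq promoter table (GRCm38.p6) holds 3 windows of Slc27a1, each from 250 bases before to 50 after an annotated start. The first of them, chr8:71568621-71568920 on the plus strand, is shown because Slc27a1 is the most abundant uptake gene and this window holds a sequence of Rbpj, the DNA-binding partner of the Notch intracellular domain. Capitals mark TGTGGGAA, whose first base lies 88 bases before the start:
Slc27a1: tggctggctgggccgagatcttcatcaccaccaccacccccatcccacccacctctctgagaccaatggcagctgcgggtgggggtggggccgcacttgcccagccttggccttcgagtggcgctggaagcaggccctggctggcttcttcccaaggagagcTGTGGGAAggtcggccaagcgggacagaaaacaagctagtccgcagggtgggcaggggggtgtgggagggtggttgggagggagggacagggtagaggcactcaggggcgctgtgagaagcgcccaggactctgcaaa
Promoter windows were at hand for 35 of the 42 genes, 41 windows in all. TGTGGGAA, searched on both strands, was found for Slc27a1 alone among the 35, and for 2.17% of the 27025 genes in the table. A match is a description of letters and not a binding site.

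Lpl, the lipase that frees fatty acids from circulating lipoproteins, had 10.01, 32.8, 37.3 and 20.2 CPM, lowest in replicate 1. Fabp3, the heart and muscle fatty acid binding protein, had 3.67, 7.44, 9.11 and 3.35 CPM, high in replicates 2 and 3. The summed level of 12 muscle fibre markers, with Acta1, Ttn and Myh4 among them and none below 1 CPM anywhere, was 1392, 2920, 2732 and 1523 CPM, also higher in replicates 2 and 3. Of the 12, only Myh4 broke this order, at 1.72, 16.7, 18.1 and 17.9 CPM, low in replicate 1 alone. It held narrowly in Myh2, in Myh7, at 6.41, 98.5, 71.7 and 67.8 CPM, and in Actn3, at 563, 567, 613 and 417 CPM. The fibro-adipogenic sum given above, mostly Col3a1, was, like Lpl, lowest in replicate 1 and highest in replicate 3. Col3a1 and Pdgfra had this order and the other members did not. Dcn and Lum were lowest in replicate 2, and Pi16, Clec3b, Col1a1, Gsn and Col1a2 in replicate 4. Dpt was highest in replicate 4. The satellite cell markers summed to 4758, 5301, 5546 and 4190 CPM. This sum and the fibro-adipogenic sum were thus also higher in replicates 2 and 3. Not every satellite cell marker followed, as Pax7 was lowest in replicate 3. The part of these markers in the levels of Lpl and Fabp3 was not tested. Fabp5, the epidermal form, had 3.52, 7.14, 5.51 and 3.83 CPM. Fabp5 has processed pseudogenes in mouse and how multiply aligned reads were treated is not given in the sources used here, so its level is uncertain.

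Fabp4, the adipocyte and endothelial form, had 8.29, 8.19, 1.84 and 1.20 CPM, so that replicates 1 and 2 lay far above 3 and 4, with a ratio of 6.93 between the extremes. The 14 endothelial markers summed to 483, 368, 156 and 182 CPM, and 13 of them had 1 CPM or more in every library. Defining members were present throughout, Pecam1 at 34.7, 25.2, 4.06 and 10.6 CPM and Cdh5 at 8.91, 8.27, 1.30 and 4.07 CPM. Not every member followed the sum, since Kdr, Tek, Flt1 and Erg were highest in replicate 2 and Tek was lowest in replicate 1, at 19.5, 32.7, 27.3 and 30.3 CPM. Fabp4, Cd36 and the endothelial sum were thus highest in replicate 1 and lower in replicates 3 and 4, and the part of the endothelial genes was not tested. The 13 macrophage markers, a type that also expresses Cd36, summed to 29.7, 195, 80.4 and 165 CPM and were lowest in replicate 1. Of 11 adipocyte markers, Adipoq, Lep and Cidec had no read, a count that leaves room for 0.226 to 0.239 CPM, and Plin1 had at most 0.469 CPM. Adrb3 had 17.2 CPM and Retn 4.30 CPM in replicate 4 and no read elsewhere, and Cidea had 0, 0, 6.43 and 6.62 CPM. Thrsp had 4.46, 5.79, 0.765 and 0.638 CPM and Gpd1 3.28, 5.04, 4.82 and 0.638 CPM, so the members of this list did not share 1 order of the libraries. The sum of that list, 294, 1248, 696 and 569.6 CPM, was mostly Car3, which muscle also expresses, at 285, 1236, 684 and 540.2 CPM.

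Per kb, Fabp3 exceeded Fabp4 by 2.86 ± 1.41 (log2) and Fabp5 lay below Fabp3 by -2.20 ± 0.40, both in 4 of 4 libraries. Without division by length these differences were 0.59, in 2 of 4 libraries, and -0.16, in 3 of 4. Fabp5 minus Fabp4 was 0.66 ± 1.24, with -0.84 in replicate 1 and 1.69 in replicate 3 (exact p = 0.375, adjusted 0.519, n = 4), so their order was not settled.

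Among the long-chain acyl-CoA synthetases, which activate fatty acids, Acsl3 and Acsl5 lay above Acsl1 and Acsl4 in mean CPM per kb. Acsl3, a form found on droplets and the endoplasmic reticulum, had 59.7, 57.4, 66.3 and 19.4 CPM. Acsl4, which prefers arachidonic acid, had 17.9, 19.7, 9.87 and 36.1 CPM. Replicate 4 was the lowest library for Acsl3 and the highest for Acsl4, and Acsl4 was the only one of the 32 genes with 10 CPM or more that peaked there, where 30.4% of all such genes did. After the GC correction Acsl4 peaked in replicate 1 and Slc27a1 alone in replicate 4, against 26.5%. Acsl3 minus Acsl4 per kb was 1.56 ± 1.52, positive in replicates 1 to 3 and -0.58 in replicate 4 (exact p = 0.25, adjusted 0.375, n = 4). Acsl5 had 52.9, 24.4, 29.3 and 42.6 CPM. Acsl1, the main form of adipose tissue and muscle fibres, had 21.03, 9.17, 14.9 and 6.70 CPM. Acsl1 lay below Acsl5 by -2.59 ± 0.68 per kb in 4 of 4 libraries.

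Droplet coat proteins were abundant in the forms that many cell types use. Plin2 (perilipin 2), which coats lipid droplets in most tissues, had 179.7, 98.8, 214 and 83.8 CPM. Plin3, an exchangeable coat protein, had 213, 139, 168 and 61.8 CPM. Replicate 4 was lowest for both. Per kb, Plin3 minus Plin2 was -0.12 ± 0.45 with 2 libraries on each side (exact p = 0.625, adjusted 0.750, n = 4), but -0.96 with the longest transcript, negative in 4 of 4, so their order rests on the length used. Plin4, known from adipocytes and muscle fibres, had 0, 0.677, 1.38 and 4.54 CPM. It had no read in replicate 1 and 57 in replicate 4, and Plin2 exceeded it by 7.07 ± 1.76 per kb in 4 of 4 libraries, a value that depends on the pseudocount in replicate 1. Of the adipocyte markers, Adrb3 and Retn were also read in replicate 4 alone, at 17.2 and 4.30 CPM, and Cidea in replicates 3 and 4, at 6.43 and 6.62 CPM. Other members of that list went another way. Gpd1 and Thrsp were lowest in replicate 4, at 0.638 CPM each, and Plin1 and Cfd had no read there. Car3 was highest in replicate 2, and Adipoq, Lep and Cidec had no read in any library. The part of the adipocyte genes was not tested. Plin5, the perilipin of oxidative tissues, had no read.

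The Plin2 window, chr4:86670010-86670309 on the minus strand, is shown because it holds the other form searched, CGTGGGAA. Its reverse complement is in capitals and starts 90 bases before the Plin2 start:
Plin2: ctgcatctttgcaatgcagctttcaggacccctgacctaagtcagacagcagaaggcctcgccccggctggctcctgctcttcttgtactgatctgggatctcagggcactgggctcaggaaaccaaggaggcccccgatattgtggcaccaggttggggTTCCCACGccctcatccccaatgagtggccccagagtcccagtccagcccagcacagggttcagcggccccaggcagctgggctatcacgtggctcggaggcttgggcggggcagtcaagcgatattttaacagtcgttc
CGTGGGAA was found for Plin2 alone among the 35 genes with a window, and for 0.862% of all genes. The PPAR type of motif, a direct repeat of AGGNCA with 1 base between on either strand, was found for 0 of the 35 and for 0.451% of all genes, which says only that these letters are not in these windows.

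Lipolysis was represented by Pnpla2 (adipose triglyceride lipase), which makes the first cut in stored triglyceride, and by Lipe (hormone-sensitive lipase), which makes the second. Pnpla2 had 28.4, 33.8, 50.3 and 13.6 CPM. Lipe had 25.3, 9.40, 21.6 and 12.4 CPM. The first exceeded the second by 1.76 ± 0.82 per kb in 4 of 4 libraries. The activator of Pnpla2, Abhd5, stood at 70.3 ± 29.8 CPM and its inhibitor G0s2 at 16.7 ± 8.94 CPM. These genes were chosen after their values were seen, and both were lowest in replicate 4, at 28.4 and 5.74 CPM.

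The entry enzyme of the carnitine shuttle was Cpt1a, the isoform known from liver and many other cells. Cpt1a had 76.5, 34.6, 132 and 101 CPM, lowest in replicate 2. Cpt1b, the muscle isoform, at chr15:89416405-89425863 in GRCm38, had 0, 3, 3 and 4 reads, which is at most 0.319 CPM. Cpt1a exceeded Cpt1b by 6.06 ± 0.89 on the log2(CPM per kb + 0.1) scale in 4 of 4 libraries, again a value set in part by the pseudocount. A limit of the counting touches this result. In GENCODE M21, 81.4% of the exon bases of Cpt1b are also exons of Gm44502, an overlapping gene on the same strand, and Gm44502 was listed at 0 in all 4 libraries. How reads in shared exons were counted is not given in the sources used here, and the level of Cpt1b is uncertain. The neighbour Chkb had 0.919 to 3.99 CPM.

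Slc25a20, which carries acylcarnitine across the inner membrane, had 52.9, 16.3, 41.6 and 51.4 CPM. Cpt2, which releases the acyl-CoA inside, had 22.8, 58.0, 74.3 and 24.5 CPM. Cpt1a and Slc25a20 were lowest in replicate 2, whereas Cpt2 was high there and in replicate 3. The sum of the muscle fibre markers (1392, 2920, 2732 and 1523 CPM) was higher in replicates 2 and 3 too, as were the satellite cell and fibro-adipogenic sums. The part of these markers was not tested. The steps of the shuttle thus did not share 1 order of the libraries.

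All 9 genes of the beta-oxidation spiral had a mean of 30.5 CPM or more. The acyl-CoA dehydrogenases open each turn of the spiral and differ in the chain length they accept. Acadvl, for very long chains, had 179, 174, 112 and 92.6 CPM. Acadl, for long chains, had 41.2, 44.4, 56.8 and 29.7 CPM. Replicate 4 was lowest for both, and Acadvl exceeded Acadl by 1.25 ± 0.50 per kb in 4 of 4 libraries. Of the exon bases of Acadvl, 42.9% overlap Dvl2 on the opposite strand, and the strand setting is not given in the sources used here. Dvl2 had 9.10 to 17.2 CPM.

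Acadm, for medium chains, had 90.3, 104, 151 and 60.3 CPM. Acads, for short chains, had 39.5, 30.4, 32.7 and 19.4 CPM. The medium-chain enzyme exceeded the short-chain enzyme by 0.91 ± 0.41 per kb in 4 of 4 libraries. Echs1, the short-chain enoyl-CoA hydratase, had 64.1, 87.0, 63.5 and 27.5 CPM, and Hadh, the next dehydrogenase of the short-chain route, 39.6, 46.0, 58.3 and 21.5 CPM. Acaa2, the thiolase that ends the turn, had 83.7, 159, 203 and 62.4 CPM, high in replicates 2 and 3 and lower in 1 and 4. The muscle fibre sum was also higher in replicates 2 and 3, as were the satellite cell and fibro-adipogenic sums. The part of these markers was not tested.

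Hadha and Hadhb encode the subunits of the mitochondrial trifunctional protein, which acts on long chains, and their levels went apart between libraries. Hadha had 180.3, 161, 166 and 50.3 CPM. Hadhb had 82.8, 51.6, 185 and 162 CPM. Hadha was thus similar in replicates 1 to 3 and low in replicate 4, whereas Hadhb was high in replicates 3 and 4. Per kb, Hadha minus Hadhb was 0.71, 1.23, -0.55 and -2.07 in replicates 1 to 4, with a mean of -0.17 ± 1.47 (exact p = 0.875, adjusted 0.875, n = 4). The mean turned to 0.36 with the length of the longest transcript and to 0.46 without replicate 4.

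In GENCODE M21 (GRCm38) Hadha spans chr5:30118304-30155162 on the minus strand and Hadhb chr5:30155248-30184593 on the plus strand, so they lie head to head. Their RefSeq starts are 272 bases apart, and their promoter windows share 228 bases, which are in capitals in the Hadhb window, chr5:30155003-30155302 on the plus strand. The GENCODE span of Hadha reaches into these shared bases, so they lie upstream of both genes only by the RefSeq starts. The window is shown because the capitals lie between the RefSeq starts of a pair of genes whose RNA levels parted:
Hadhb: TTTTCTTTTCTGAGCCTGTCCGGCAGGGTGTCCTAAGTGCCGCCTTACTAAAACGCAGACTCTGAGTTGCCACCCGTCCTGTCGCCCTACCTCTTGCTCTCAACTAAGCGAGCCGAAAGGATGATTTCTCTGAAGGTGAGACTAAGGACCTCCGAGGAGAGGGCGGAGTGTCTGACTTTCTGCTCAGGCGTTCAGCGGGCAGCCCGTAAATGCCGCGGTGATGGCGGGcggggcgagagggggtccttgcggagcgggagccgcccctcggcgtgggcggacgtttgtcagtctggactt
The longest transcript of Hadha has a GC content of 51.3% and that of Hadhb 39.1%. Libraries differed in how they represented GC content. Among genes with 10 CPM or more, the 2299 genes with the lowest GC content, up to 44.6%, deviated from their gene means by a median of -0.43 in replicate 1 and 0.60 in replicate 4 on the log2(CPM + 1) scale, and the 2299 with the highest, from 54.0%, by 0.29 and -0.43. With each library corrected for GC content, Hadhb in replicate 4 moved from 0.60 above its mean to -0.11, and Hadha in replicate 4 from -1.30 to -1.0.

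Etfa, the highest of all 42 genes per kb, encodes the alpha subunit of the electron transfer flavoprotein. It had 298, 308, 299 and 228 CPM, close to equal in replicates 1 to 3, and its SD of 0.20 on the log2(CPM + 1) scale was the smallest among the 32 genes with 10 CPM or more. Etfdh, the oxidoreductase that passes the electrons on to ubiquinone, had 110.4, 61.4, 157 and 139 CPM. Etfb, the beta subunit, had 17.0, 11.7, 23.7 and 13.1 CPM. Per kb, Etfb stood at 14.1 ± 4.60 and Etfa at 154 ± 20.3 CPM, although their products form 1 dimer. As for Cpt1b, 53.0% of the exon bases of Etfb are shared with another gene on the same strand, named Etfbl in the table and listed at 0 in all 4 libraries, so the level of Etfb is uncertain too.

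Regulators of the pathway were low. Ppard, the nuclear receptor PPAR delta, had 16.7, 4.74, 3.67 and 8.29 CPM. Ppara, the receptor that drives oxidation genes in liver and muscle, had 5.79, 1.58, 3.21 and 1.28 CPM. Pparg, the receptor of adipocyte differentiation, had 2.89, 2.26, 2.99 and 1.67 CPM. Per kb, the order of the 3 receptors did not hold across libraries, with Ppard minus Ppara at 0.46 ± 0.88 per kb (exact p = 0.5, adjusted 0.643, n = 4) and Ppard minus Pparg at 0.20 ± 0.95 (exact p = 0.875, adjusted 0.875, n = 4). With the longest transcript Ppard exceeded Ppara by 1.25 in 4 of 4 libraries and Pparg by 0.70 in 3 of 4, and without division by length by 1.46 and 1.52, both in 4 of 4. Ppargc1a, a coactivator of mitochondrial genes, had 1.56, 0.977, 1.99 and 0 CPM. Its relative Ppargc1b, chosen here after its values were seen, stood at 24.98 ± 8.82 CPM.

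Of the uncoupling proteins, Ucp2, found in many tissues, was high and Ucp3, known from muscle fibres, was low. Ucp2 had 195, 188, 199.8 and 55.6 CPM, nearly equal in replicates 1 to 3 and far lower in replicate 4. Ucp3 had 0, 1.73, 5.74 and 4.86 CPM, with no read in replicate 1. The sum of the muscle fibre markers was also lowest there, at 1392 CPM against 1523 CPM in replicate 4. Ckm, Actn3, Tnnt3 and Pvalb among them were instead lowest in replicate 4. The part of the fibre markers was not tested. Ucp2 exceeded Ucp3 by 4.92 ± 2.48 per kb in 4 of 4 libraries, from 8.13 in replicate 1, set by the pseudocount, to 2.29 in replicate 4.

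All 5 genes of synthesis and desaturation had a mean of 10 CPM or more. Fasn, fatty acid synthase, had 102, 92.8, 55.8 and 35.2 CPM. Scd1 and Scd2, desaturases that make monounsaturated fatty acids, had 139, 131, 88.6 and 126 CPM and 205, 229, 96.4 and 102 CPM. Per kb the desaturases did not differ beyond their spread, with Scd2 minus Scd1 at 0.13 ± 0.49 and 2 libraries on each side (exact p = 0.75, adjusted 0.844, n = 4). Acaca, the cytosolic acetyl-CoA carboxylase of fatty acid synthesis, had 34.0, 18.04, 9.87 and 15.1 CPM. Acacb, the mitochondrial form whose malonyl-CoA restrains Cpt1, had 30.3, 16.7, 14.8 and 13.8 CPM. Acaca minus Acacb was -0.80 ± 0.31 per kb and negative in 4 of 4 libraries. It was -0.15 with the longest transcript, negative in 2 of 4, and -0.043 without division by length, negative in 1 of 4, so their order rests on the length used.

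In each of the 5 synthesis genes both replicates 1 and 2 lay above both replicates 3 and 4. This order, noticed in the values, held for 9 of the 32 genes with 10 CPM or more, against 18.7% of all such genes. The remaining 4 were Cd36, Slc27a1, Acadvl and Echs1. The endothelial markers had the same order as a sum. So did 21 further genes of synthesis, elongation and desaturation, at 1832, 1722, 1476 and 1285 CPM in replicates 1 to 4. Not each of the 21 had it, as Hacd3 was lowest in replicate 1 and highest in replicate 4. Sums of further genes of lipoprotein handling, triglyceride synthesis and regulation had this order too. Those of accessory mitochondrial and peroxisomal oxidation did not. After the GC correction the order held for 10 of the 32, against 18.4%, with 4 of the 5 synthesis genes among them and not Acacb. The part of the endothelial genes was not tested.

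**Figure D2:**
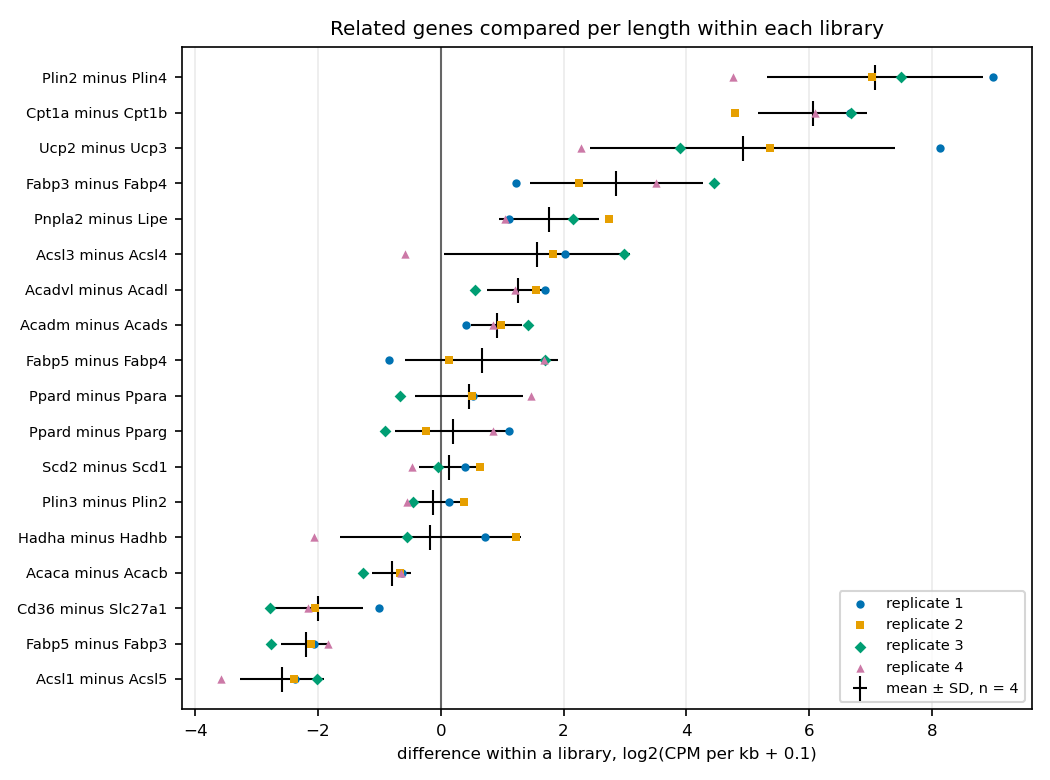
Difference within each library between 18 pairs of related genes, in log2(CPM per kb + 0.1), with 1 symbol per library and the mean ± SD of the 4 libraries in black. Plin2 minus Plin4 and Cpt1a minus Cpt1b lie furthest to the right, and Hadha minus Hadhb spreads to both sides of 0.

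**Figure D3:**
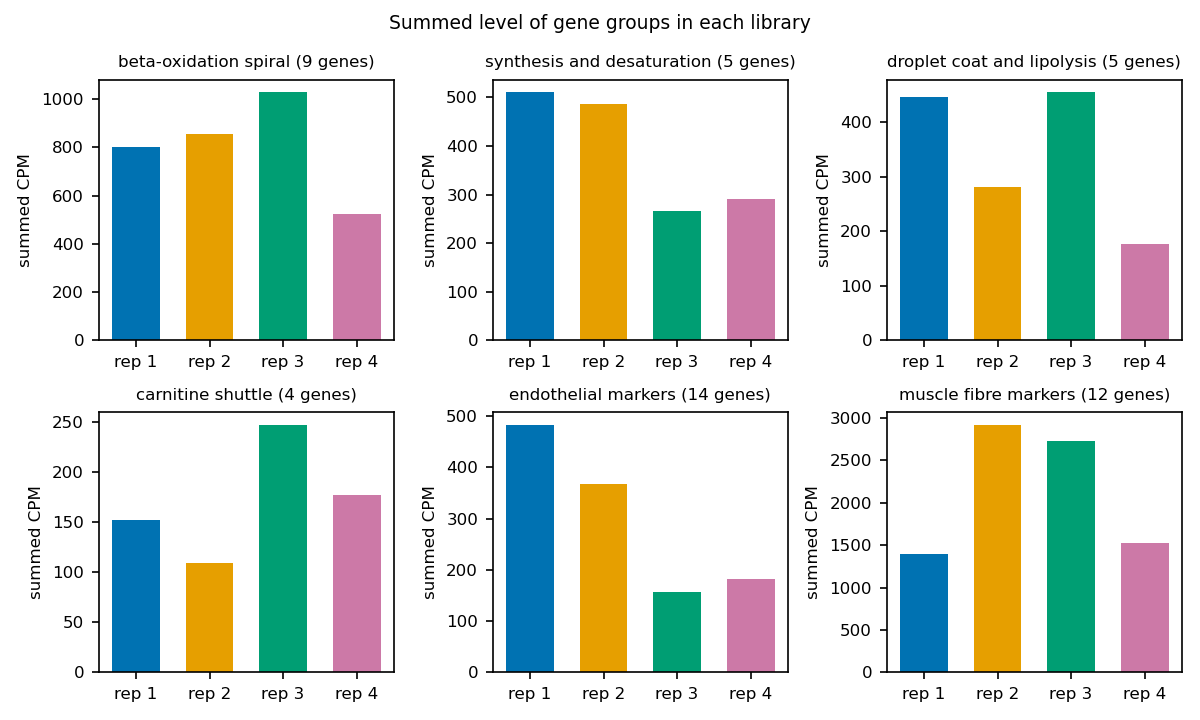
Summed CPM of 4 groups of fatty acid genes and of 2 lists of marker genes in each library, 1 bar per library. Beta-oxidation and droplet genes are lowest in replicate 4, synthesis genes and endothelial markers are higher in replicates 1 and 2, and muscle fibre markers are higher in replicates 2 and 3.

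Replicate 4 was the low library for most genes of the beta-oxidation spiral, and not for the carnitine shuttle, whose 3 genes with 10 CPM or more were lowest elsewhere, nor for Etfb and Etfdh. Of the 32 genes with 10 CPM or more, 18 were lowest there, against 31.3% of all such genes, and 1 was highest there. The genes lowest in replicates 1, 2 and 3 numbered 2, 7 and 5, against 28.2%, 22.1% and 18.4%. Of the 9 spiral genes, 8 were lowest in replicate 4, Hadhb being the exception. Their summed level was 801, 857, 1028 and 525 CPM. In replicate 4 the 32 genes deviated from their own means by a median of -0.53, while the median over all genes with 10 CPM or more was -0.00. After the correction for GC content, 14 of the 32 were lowest in replicate 4, against 24.9% of all such genes, and the median deviation there was -0.33. Of the 8 spiral genes, Acadvl was then lowest in replicate 3 and Acaa2 in replicate 1. Acadl, Acadm, Acads, Echs1, Hadh and Hadha stayed lowest in replicate 4. The genes lowest in replicates 1, 2 and 3 then numbered 4, 8 and 6, against 26.1%, 24.2% and 24.8%.

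Replicates 1 and 3 were each the highest library for 14 of the 32 genes, against 26.4% and 23.7% of all such genes, and replicate 2 for 3, against 19.5%. After the GC correction the genes highest in replicates 1, 2 and 3 numbered 13, 5 and 13, against 25.7%, 22.7% and 25.1%. Without it, replicate 1 held the peak of 4 of the 5 synthesis genes and replicate 3 that of 5 of the 9 spiral genes. The satellite cell markers had median deviations of 0.09, 0.18, 0.16 and -0.22 in replicates 1 to 4, so they were lowest in replicate 4 as well, by less than the fatty acid genes. After the GC correction the satellite deviations were -0.10, 0.07, 0.10 and -0.10, so that replicates 1 and 4 were about level. Reads of mitochondrially encoded genes made up 0.533%, 0.981%, 0.822% and 1.82% of the libraries, highest in replicate 4, and the part of library quality in these differences was not tested.

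**Figure D4:**
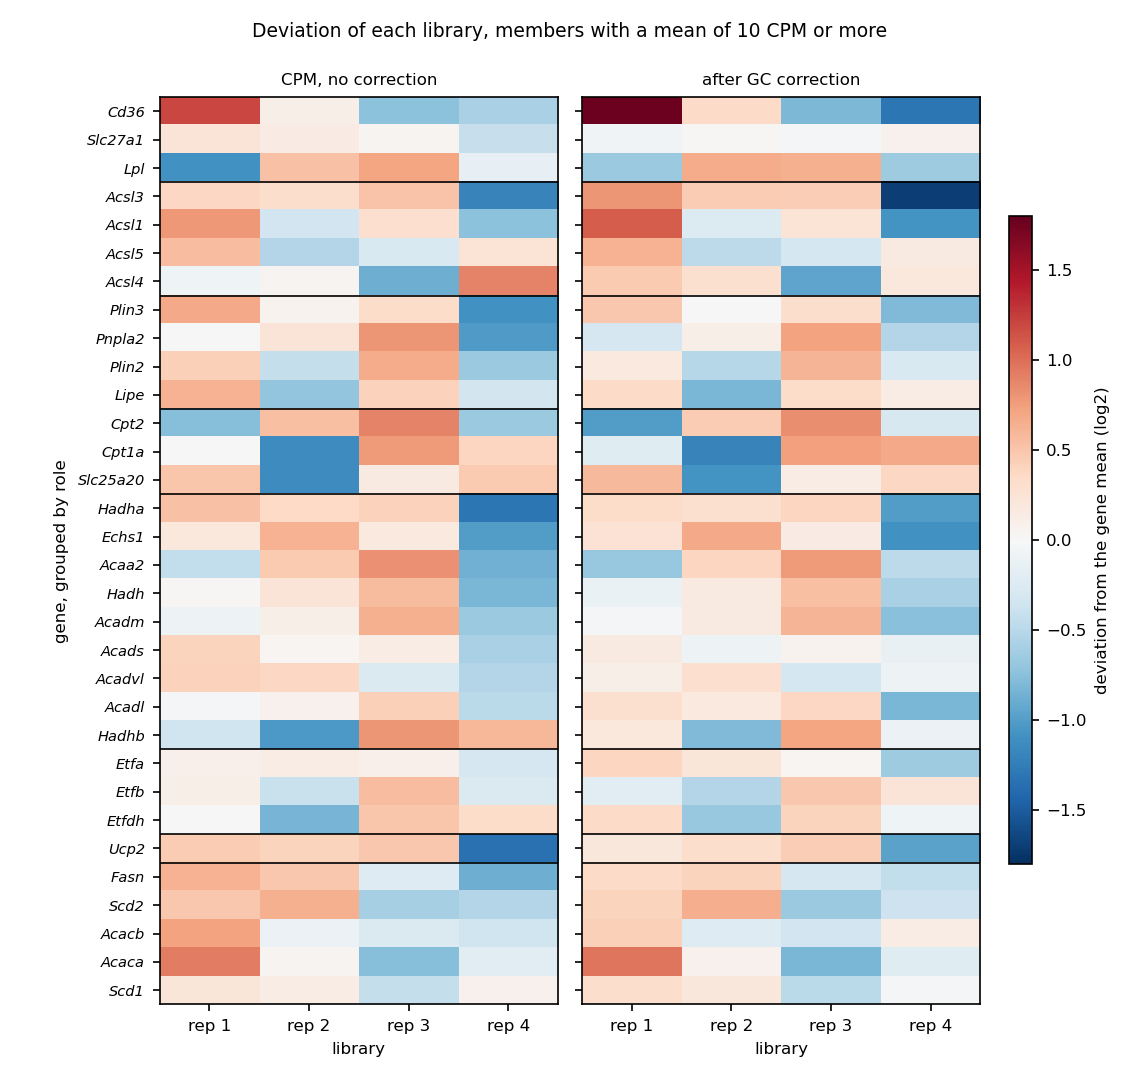
Deviation of each library from the mean of a gene, in log2(CPM + 1), for the 32 fatty acid genes averaging at least 10 CPM, grouped by role with black lines between roles; the left panel is without correction and the right panel after correction for transcript GC content. Blue cells gather in replicate 4 for the spiral genes, and Hadhb in replicate 4 changes from red to pale blue after the correction.

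No gene of the 32 had an SD of 1 or more on the log2(CPM + 1) scale, a spread that 2.08% of all genes with 10 CPM or more reached. Their median SD was 0.69, compared with 0.62 over all such genes. Slc27a1 and Scd1 had an SD of 0.29 and Etfa of 0.20, while Ucp2, Cd36 and Hadha reached 0.89, 0.88 and 0.87.

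Other genes of lipid metabolism, 113 in 6 lists, showed how far the surrounding pathway was expressed. Of these, 93 had 1 CPM or more in all libraries, where 53.6% of all genes did. No read in any library was found for 5 of them, Slc27a2, Plin5, Cidec, Ehhadh and Scd3, and for 4812 of all 21255 symbols. In lipoprotein handling and transport, 11 of 16 reached 1 CPM in every library, with Angptl4, an inhibitor of Lpl, at 105 ± 20.1 CPM and the receptor Lrp1 at 104 ± 22.9 CPM. Gpihbp1, the endothelial anchor of Lpl, had 7.51, 17.4, 2.22 and 3.75 CPM and was chosen here after its values were seen. In triglyceride synthesis and droplets, 15 of 19 did so, those with the highest CPM being Gpam, which starts glycerolipid synthesis, at 90.5 ± 39.0 CPM, and the lipins Lpin2 and Lpin1 at 83.8 ± 48.3 and 74.6 ± 28.8 CPM.

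Among accessory genes of mitochondrial oxidation and ketone bodies, 18 of 21 had 1 CPM or more in every library. The thioesterase gene Acot9 had 129 ± 60.5 CPM, the highest, followed by Hsd17b10 at 99.3 ± 42.8 CPM and the thiolase Acat1 at 99.1 ± 26.8 CPM. The peroxisomal list reached it with 11 of 14, the highest in CPM being Scp2 at 179.7 ± 34.1, Acaa1a at 99.6 ± 30.3 and Crot at 90.8 ± 29.1 CPM. Elongation and desaturation genes did so with 17 of 21, and the elongation enzymes Tecr, Hacd3 and Elovl1 stood at 282 ± 108, 214 ± 80.0 and 209.9 ± 99.99 CPM. Tecr is the last reductase of the elongation cycle, Hacd3 a dehydratase and Elovl1 an elongase.

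Among 22 further regulators of lipid metabolism, 21 had 1 CPM or more in every library, and their median level was 6.18 CPM per kb. Insig2, which holds the SREBP precursors in the endoplasmic reticulum, had 309, 334, 351 and 345 CPM. Srebf2, the SREBP gene of the sterol pathway, stood at 197 ± 53.6 CPM and Prkab2, a subunit of AMP-activated kinase, at 134 ± 58.9 CPM. Insig2 was thus nearly level across the libraries. Nr1h3 (LXR alpha) was the only one of the 113 with 10 CPM or more and an SD of at least 1 on the log2(CPM + 1) scale. It had 4.93, 19.8, 18.4 and 4.23 CPM, high in replicates 2 and 3. The muscle fibre sum of 1392, 2920, 2732 and 1523 CPM was higher there too, as were the satellite cell and fibro-adipogenic sums. The part of these markers was not tested.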

How the data were processed

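RNA was measured in 4 libraries of a single group, assigned from the sample titles. The deposited values are log2 CPM plus a constant offset made by the authors, as their shared lowest value of -4.19 and the sums show. Per the submitters' processing notes, Trimmomatic 0.33, FastQC, featureCounts, edgeR and build mm10 were used; the sources used here do not give the aligner, annotation, strand setting or treatment of shared or multiply aligned reads.

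The offset of 0.0548 CPM was removed, after which 100% of values were whole multiples of 1 read within 1e-06 reads; depth was 12544138 to 13302916 reads. A count of 0 was given an upper limit of 3 reads, which covers counting error alone. With 1 group there was nothing for a count model to compare. Positions, summed exon length and GC content of the longest transcript came from GENCODE M21, the mm10 assembly (99.6% of identifiers matched). For each pair the signs of the 4 differences were flipped in all 16 ways (exact permutation, two-sided), with Benjamini-Hochberg adjustment over 18 pairs. GC correction subtracted, per library, the median deviation in 20 GC bins. The depth, spread and sign-flip steps were tested on simulated data. The genes, lists and pairs were chosen with earlier results of these data known. Values are given in every library for the highest and lowest gene of each role, paired genes and variable genes, and in other lists the 3 highest and any variable gene are named, except 1 that is not reported here; further genes are marked as chosen after their values were seen. Alternatives covered the minimum level, pseudocounts, scaling, length, GC content and each library left out. Python 3.11.15, numpy 2.4.6, pandas 2.3.3 and matplotlib 3.10.9 were used.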

Additional observations from a re-analysis of the deposited data

Results flagged for a closer look

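Among 79 values searched (42 levels of fatty acid genes, 18 pair differences and 19 other named genes), 7 had 1 library far from the other 3 by Dixon's 95% criterion, which sets the gap to the nearest library against the range. By the nominal rate of the criterion, chance flags about 1 in 20. The share over all genes was not counted, so whether these 7 are unusual cannot be told. Hadha, Etfa and Ucp2 stood apart in replicate 4, with 50.3, 228 and 55.6 CPM, each the lowest value. Acaca minus Acacb per kb was lowest in replicate 3 at -1.27. Angptl4 was lowest in replicate 3 at 75.1 CPM. Acot9 was highest in replicate 4 at 219 CPM and Hsd17b10 highest in replicate 1 at 163 CPM. With 1 group in the data, no effect was compared between groups, and every column of the table was used.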

How the results depend on the processing

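No paired analysis was possible because there is only 1 group. The count of 38 genes at 1 CPM or more in every library ran from 38 to 39 when a library was left out and was 32 at a minimum of 5 CPM. With a library left out it could not fall, since a gene that passes in every library passes in any 3. The share of all genes was not counted in these settings. The median level of 5.28 ran from 5.16 to 5.39 when a library was left out and was 5.32 over those averaging at least 1 CPM. The count of genes with an SD of at least 1, 0 of 32, became 3 of 41 at a minimum of 1 CPM (Fabp4, Plin4 and Ucp3) against 5.94% of all such genes. With GC correction it was 2 of 32 (Cd36 and Acsl3) against 3.40%. Without replicates 1, 2, 3 and 4 in turn it was 3, 3, 2 and 0 of 32, where the SD rests on 3 libraries. The shares of all such genes were then 5.55%, 8.56%, 8.05% and 4.69%. With GC correction, the genes highest in replicate 2 became 5 (3 without it) and those lowest in replicate 1 became 4 (2 without it), and the cause was not tested. The count of 11 pairs with the same sign in every library ran from 11 to 12 when a library was left out, with all 11 among them. It could not fall, since a pair with the same sign in every library keeps it in any 3. Without division by length it was 10, of which 8 were shared (Fabp3 minus Fabp4, Fabp5 minus Fabp3 and Acaca minus Acacb lost, Ppard minus Ppara and Ppard minus Pparg gained), and with the longest transcript 12, of which 10 were shared (Acaca minus Acacb lost, Plin3 minus Plin2 and Ppard minus Ppara gained). Hadha minus Hadhb, -0.17, turned to 0.23 without division by length and to 0.36 with the longest transcript. When a library was left out, it ran from -0.64 to 0.46, Ppard minus Pparg from -0.10 to 0.57, Scd2 minus Scd1 from -0.035 to 0.34 and Plin3 minus Plin2 from -0.29 to 0.022; the signs turned without replicate 4 for the first, without replicate 1 or 4 for the second, without replicate 2 for the third and without replicate 4 for the last. Of the other pair values, 137 kept their direction. The 775 single-gene levels recomputed moved by no more than 1 SD. For those with a library left out this was certain beforehand, since leaving out 1 of 4 values cannot move a mean that far. Genes of few reads, such as Cpt1b, Plin4 and Ppargc1a, are limited by depth.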
